A study of Mus musculus with 4 samples.

Results

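The cathepsins are the main proteases of the lysosome, and 10 of their genes were followed here through single brain phagocytes: Ctsa, Ctsb, Ctsc, Ctsd, Ctsf, Ctsh, Ctsk, Ctsl, Ctss and Ctsz. They were taken by their symbols from the 32285 genes listed for each library, not by a cutoff on a measured value, but with earlier results of these data known. Droplet libraries with 3′ tags had been made from CD45+ CD11b+ cells sorted from the brains of 2 PRMT1FL mice and 2 PRMT1Cx3cr1-KO mice, 1 library a mouse. All 4 mice were on the C57BL/6 background, carried loxP-flanked Prmt1 alleles, and received tamoxifen and then 0.2% cuprizone (CPZ), a copper chelator that strips myelin, in the diet for 5 weeks. The knockout mice also carried Cx3cr1-CreERT, a tamoxifen-inducible Cre whose driver is active in microglia and in other macrophages and monocytes, so deletion in other cells is possible and was not tested here, and with no Cre-bearing mouse that keeps Prmt1, the driver and the deletion cannot be told apart. The labels give an age of 5 to 6 weeks at the start of the diet, whereas the study's methods give that age for tamoxifen, 2 weeks before the diet. Libraries taken without CPZ were not analysed here.

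Lysosomal proteases are made as inactive precursors, carried to the lysosome largely on mannose 6-phosphate receptors, and activated there by low pH and cleavage. Most cathepsins are cysteine proteases of the papain family, whereas Ctsd encodes an aspartic protease and Ctsa a serine carboxypeptidase. In microglia they degrade engulfed myelin and debris, and cathepsin S and its relatives trim the invariant chain (Cd74) before MHC class II takes up peptide.

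Promoters of 8 members were in the RefSeq table used, and the 6 that held a match to a motif searched are shown, so that the letters behind each match can be seen. Each runs from 250 bases before the RefSeq start site to 20 bases after it, 5′ to 3′ on the gene's strand, in GRCm38.p6 coordinates. Capitals mark matches on either strand to CACGTG, the core E-box, to TCACGTGA, its longer form bound by the TFEB and MITF family, or to GAGGAAGT, a PU.1 motif, PU.1 (Spi1) being the macrophage lineage factor. Ctsa lies at chr2:164833523-164833792 (+), Ctsd at chr7:142387808-142388077 (-), Ctsl at chr13:64370501-64370770 (-), Ctsf at chr19:4854915-4855184 (+), Ctss at chr3:95526536-95526805 (+) and Ctsc at chr7:88277835-88278104 (+).
Ctsa: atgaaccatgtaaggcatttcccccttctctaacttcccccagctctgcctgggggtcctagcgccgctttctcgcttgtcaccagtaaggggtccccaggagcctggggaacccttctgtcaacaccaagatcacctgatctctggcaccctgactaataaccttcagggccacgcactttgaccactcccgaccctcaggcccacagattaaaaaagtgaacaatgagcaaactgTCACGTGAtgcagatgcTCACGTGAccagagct
Ctsd: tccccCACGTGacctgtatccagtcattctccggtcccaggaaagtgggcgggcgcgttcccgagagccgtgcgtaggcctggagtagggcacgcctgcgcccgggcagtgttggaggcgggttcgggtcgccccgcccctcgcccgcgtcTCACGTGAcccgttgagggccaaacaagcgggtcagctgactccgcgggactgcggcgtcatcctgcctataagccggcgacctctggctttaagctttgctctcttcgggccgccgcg
Ctsl: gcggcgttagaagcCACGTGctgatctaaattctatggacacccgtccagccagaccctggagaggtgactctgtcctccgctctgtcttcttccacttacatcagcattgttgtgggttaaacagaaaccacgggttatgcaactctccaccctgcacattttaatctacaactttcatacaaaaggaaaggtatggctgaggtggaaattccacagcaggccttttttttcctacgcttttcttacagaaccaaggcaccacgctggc
Ctsf: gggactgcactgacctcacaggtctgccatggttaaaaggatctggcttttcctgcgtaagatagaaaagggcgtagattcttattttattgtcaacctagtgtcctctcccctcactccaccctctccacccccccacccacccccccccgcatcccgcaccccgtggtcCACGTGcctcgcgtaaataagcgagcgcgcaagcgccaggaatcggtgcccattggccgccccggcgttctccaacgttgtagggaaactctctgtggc
Ctss: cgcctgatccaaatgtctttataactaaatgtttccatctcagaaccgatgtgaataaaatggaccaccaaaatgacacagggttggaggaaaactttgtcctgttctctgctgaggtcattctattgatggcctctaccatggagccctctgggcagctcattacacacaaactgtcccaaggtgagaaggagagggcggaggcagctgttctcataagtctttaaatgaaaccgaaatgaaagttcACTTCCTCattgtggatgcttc
Ctsc: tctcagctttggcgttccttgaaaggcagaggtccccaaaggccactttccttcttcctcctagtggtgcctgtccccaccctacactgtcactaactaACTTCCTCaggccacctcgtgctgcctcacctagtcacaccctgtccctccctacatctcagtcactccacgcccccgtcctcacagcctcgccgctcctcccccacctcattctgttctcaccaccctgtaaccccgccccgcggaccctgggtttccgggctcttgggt
CACGTG was found in the windows of Ctsa, Ctsd, Ctsf and Ctsl, and in 7.15% of 32851 promoter windows of 300 bases. Its longer form TCACGTGA, which contains CACGTG, occurred in 0.974% of all windows, and among the members in Ctsa, 13 bases before the start and again just after it, and in Ctsd, 99 bases before the start. GAGGAAGT was present in Ctss, 2 bases before the start, in Ctsc, 151 bases before it, and in 3.20% of all windows. No member matched the full CLEAR palindrome or an NF-kB motif, which stood in 0.326% and 0.155% of windows. A match is a string of letters, not a site shown to be bound.

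The libraries held 8284 to 11554 barcodes and 76943248 to 99559644 UMIs, and pairs of libraries shared 31 to 46 barcodes. After filtering, 40869 cells remained, of which 39545 were microglia by their clusters, with a median of 6234 to 7074 UMIs a cell in each mouse. The microglial markers P2ry12, Tmem119, Sall1, Siglech and Cx3cr1 were all detected in every mouse. Prmt1 itself stood at 90.9 and 84.0 counts per 1000000 UMIs (CPM) in microglia of PRMT1FL mice and at 70.3 and 70.8 CPM in those of PRMT1Cx3cr1-KO mice, and did not pass the test (log2 fold change -0.38 ± 0.07 SE, n = 2 mice per group, adjusted p = 0.0727, edgeR), the 3′ tags not telling a deleted transcript from an intact one. Droplet reads carry 1 UMI per molecule whatever the length of the gene, so the CPM of different cathepsins are shares of captured molecules and need no length correction. Whether capture differed between genes was not tested.

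Ctsd, the aspartic endopeptidase that begins much of lysosomal protein breakdown, was the most abundant member by far. Its level was 20970 and 20102 CPM in the PRMT1FL mice and 19433 and 21136 CPM in the PRMT1Cx3cr1-KO mice, which amounts to 51.0% of the members' UMIs. Among the cysteine endopeptidases, Ctsb, which also trims dipeptides, gave 14.6% of these UMIs, Ctss, the elastin- and invariant chain-cleaving cathepsin S, 12.47%, and Ctsl, a broad endopeptidase, 6.36%. Ctsz, a carboxypeptidase, gave 9.12%, Ctsa, the serine carboxypeptidase that also shields Neu1 and Glb1, 3.03%, Ctsh, an aminopeptidase, 2.02%, and Ctsc, the dipeptidyl peptidase that activates granule serine proteases, 1.04%. Ctsf, a further papain-type endopeptidase, supplied 0.299%.

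The order of the levels, from Ctsd through Ctsb, Ctss, Ctsz, Ctsl, Ctsa, Ctsh and Ctsc to Ctsf, was the same in all 4 mice. Over the mice, the ranges of Ctsb and Ctss were the only neighbouring ones to overlap, since Ctss reached 5537 CPM in a PRMT1FL mouse and Ctsb fell to 5480 CPM in a PRMT1Cx3cr1-KO mouse. Ctsk, the collagen-cleaving protease of osteoclasts, was all but absent, with 9 and 5 UMIs in all microglia of the PRMT1FL mice and 8 and 17 in those of the PRMT1Cx3cr1-KO mice. At 2000 UMIs a cell it was found in 14 of 36030 microglia (0.0389%, exact 95% interval 0.0212 to 0.0652%, counting error only), a smaller share than the 2 of 53 oligodendrocyte-like cells (3.77%). Ctsk did not pass the filter on low counts of the main test.

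After each cell was thinned to 2000 UMIs, which left out 3515 shallower microglia, a Ctsd UMI was seen in 99.98% of microglia, a Ctsb UMI in 99.4%, a Ctss UMI in 99.8%, and a Ctsz UMI in 98.9%. Cells of other types were set beside them, and free RNA in those cells was not told apart from their own transcripts. Ctss was found in 25.5% of 255 astrocyte-like and 34.1% of 44 neutrophil-like cells, and Ctsd in 64.7% and 65.9%. The Ctsf share of 22.1% in microglia was no higher than the 23.5% of astrocyte-like cells, but above the 6.82% of neutrophil-like cells. How much of it is expression cell by cell and how much free RNA was not tested. Ctsc was seen in 54.4% of microglia and 8.24% of astrocyte-like cells, and Ctsh in 77.0% and 24.7%.

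The comparison of genotypes over all microglia asked whether loss of Prmt1 changed the family. Of 13854 genes tested on UMIs summed per mouse, 110 (0.794%) passed an adjusted p of 0.05 in edgeR's quasi-likelihood test, 2722 had an unadjusted p under 0.05, and 0 of the 9 testable cathepsins were called. In spite of that, 8 members separated the 4 mice without overlap: 7 were lower in both PRMT1Cx3cr1-KO mice, against 17.3% of all genes tested, and Ctsc was higher in both, against 38.8%. The median log2 fold change of the 9 was -0.26, beside -0.004 over all genes tested. With 2 mice a group, an exact two-sided permutation test of a single value cannot go below p = 0.333, and the model p-values measure only the spread between these mice. Since cells were summed, fewer cells of a high-expressing state and less RNA per cell cannot be told apart in these values.

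**Figure D1:**
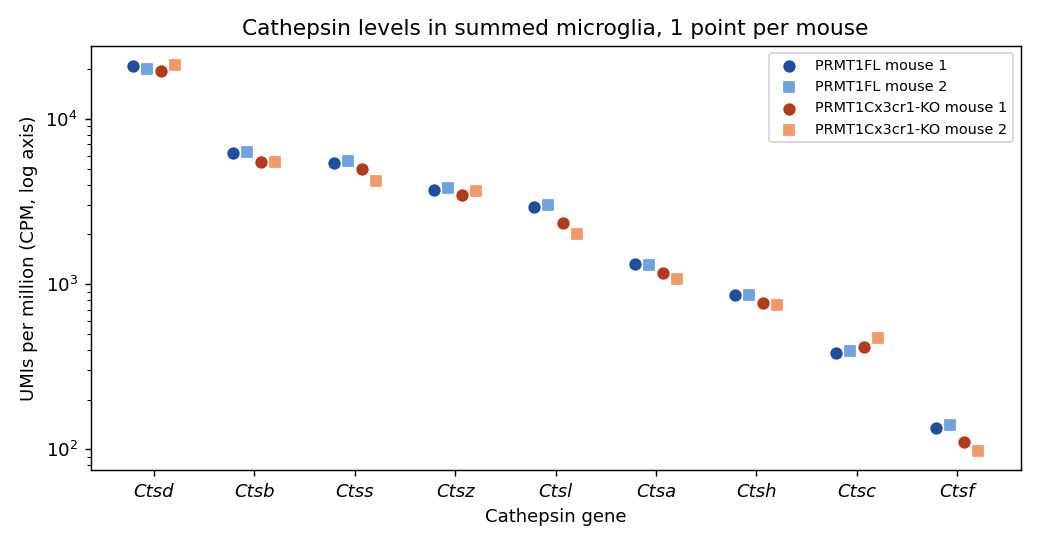
Level of 9 cathepsins in microglia, in CPM on a log axis, with 1 point per mouse for 2 PRMT1FL mice (blue) and 2 PRMT1Cx3cr1-KO mice (red and orange). Both knockout points lie under both control points for Ctsb, Ctss, Ctsz, Ctsl, Ctsa, Ctsh and Ctsf, both lie above for Ctsc, and the groups overlap for Ctsd.

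The 3 largest differences over microglia were those of Ctsl, Ctsf and Ctss. Ctsl measured 2915 and 3027 CPM in PRMT1FL mice against 2328 and 2016 CPM in PRMT1Cx3cr1-KO mice. Both knockout mice were therefore under both controls, with a log2 fold change of -0.52 ± 0.11 (SE) and an adjusted p of 0.0881 in edgeR. Ctsf measured 134 and 140.3 CPM against 110.4 and 97.6 CPM, again with no overlap (-0.47 ± 0.09, adjusted p = 0.0812 in edgeR). For Ctss the values were 5411 and 5537 against 4939 and 4233 CPM, the second knockout mouse being the lowest (-0.33 ± 0.12, adjusted p = 0.198 in edgeR).

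Ctsb stood at 6242 and 6261 CPM in PRMT1FL mice against 5515 and 5480 CPM in PRMT1Cx3cr1-KO mice (log2 fold change -0.26 ± 0.09 SE). The serine carboxypeptidase gene Ctsa stood at 1327 and 1301 CPM against 1165 and 1079 CPM (-0.30 ± 0.09). Ctsh, the aminopeptidase, stood at 862 and 859.6 CPM against 772 and 745 CPM (-0.26 ± 0.07). In each of these 3 genes both knockout mice lay under both controls, and none passed the test (adjusted p of 0.14 for Ctsa, 0.146 for Ctsh and 0.185 for Ctsb in edgeR).

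The carboxypeptidase gene Ctsz moved less, with 3701 and 3793 CPM in PRMT1FL mice against 3449 and 3675 CPM in PRMT1Cx3cr1-KO mice (log2 fold change -0.15 ± 0.08). Ctsc was the exception in direction, at 383 and 393 CPM against 416 and 469 CPM (0.11 ± 0.07). Ctsd was the member whose groups overlapped, with a log2 fold change of -0.09 ± 0.10. None of these 3 passed the test (adjusted p of 0.370 for Ctsz, 0.433 for Ctsc and 0.660 for Ctsd in edgeR).

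How many members were called over all microglia depended on the tool and on the sums used, whereas their direction seldom did. DESeq2 called 5 lower (Ctsa, Ctsb, Ctsf, Ctsh and Ctsl), with 1.47% of all genes called lower. A voom fit with the cluster as a term called 6 lower (these 5 and Ctss), with 11.5% of all genes called lower. Its units were sums per mouse and cluster, and the correlation within a mouse was set at 0.0997, so they counted nearly as separate replicates. Genotype varied only between mice, so these 6 calls rest on more units than mice. In edgeR, leaving out each mouse in turn left 1 mouse in its group, so members called are not counted for these fits. The median log2 fold change of the members was -0.26 without the first or the second control mouse. It was -0.29 without the first and -0.20 without the second knockout mouse. Ctsk passed the filter in the fits without either control mouse and without the first knockout mouse. Their medians are thus over 10 members, and that without the second knockout mouse is over 9. With no filter on low counts 4 members were called lower (Ctsa, Ctsf, Ctsl and Ctss), with 3.42% of genes called lower, and after thinning each cell to 2000 UMIs 1 was (Ctsf), with 0.934%. As a share of all microglial UMIs the 10 genes made up 4.19% and 4.14% in PRMT1FL mice against 3.81% and 3.89% in PRMT1Cx3cr1-KO mice.

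Clusters of microglia were formed without the 10 members and without 1414 genes that differed between genotypes over all cells, and 9 clusters had at least 50 cells in every mouse. Of them, 4 carried names from markers: MHC class II-like, interferon-like and 2 that were mitotic-like. The others are given by number and leading genes: cluster 0 (Hspa1b, Lgi2 and Baiap2l2), cluster 2 (Txnip, Il7r and Crybb1), cluster 4 (haemoglobin genes, Lgals3 and Ccl6), cluster 5 (Il12b, Tnfsf9 and Ptgs2) and cluster 6 (Il7r, Slc40a1 and Bank1). Cell depth differed among them, from a median of 2441 UMIs in cluster 6 to 13285 UMIs in mitotic-like cluster 8, and all levels across clusters are descriptions.

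The members fell into groups by where they were high. Ctsd, Ctsb, Ctsl and Ctsa were highest in cluster 0, and Ctsz in cluster 4, with a mean over mice of 4139 CPM. Averaged over the 4 mice, Ctsd reached 23220 CPM in cluster 0 and 12707 CPM in cluster 2, and Ctsb 6864 CPM in cluster 0 and 3192 CPM in cluster 6. Ctss, Ctsf and Ctsc were instead highest in cluster 6, at 6635, 239 and 721 CPM, and Ctsh in the MHC class II-like cluster, at 968 CPM. The least abundant gene tested, Ctsf, had the widest range over clusters (3.15-fold, down to 75.8 CPM in mitotic-like cluster 10), and Ctsh the narrowest (1.45-fold).

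**Figure D2:**
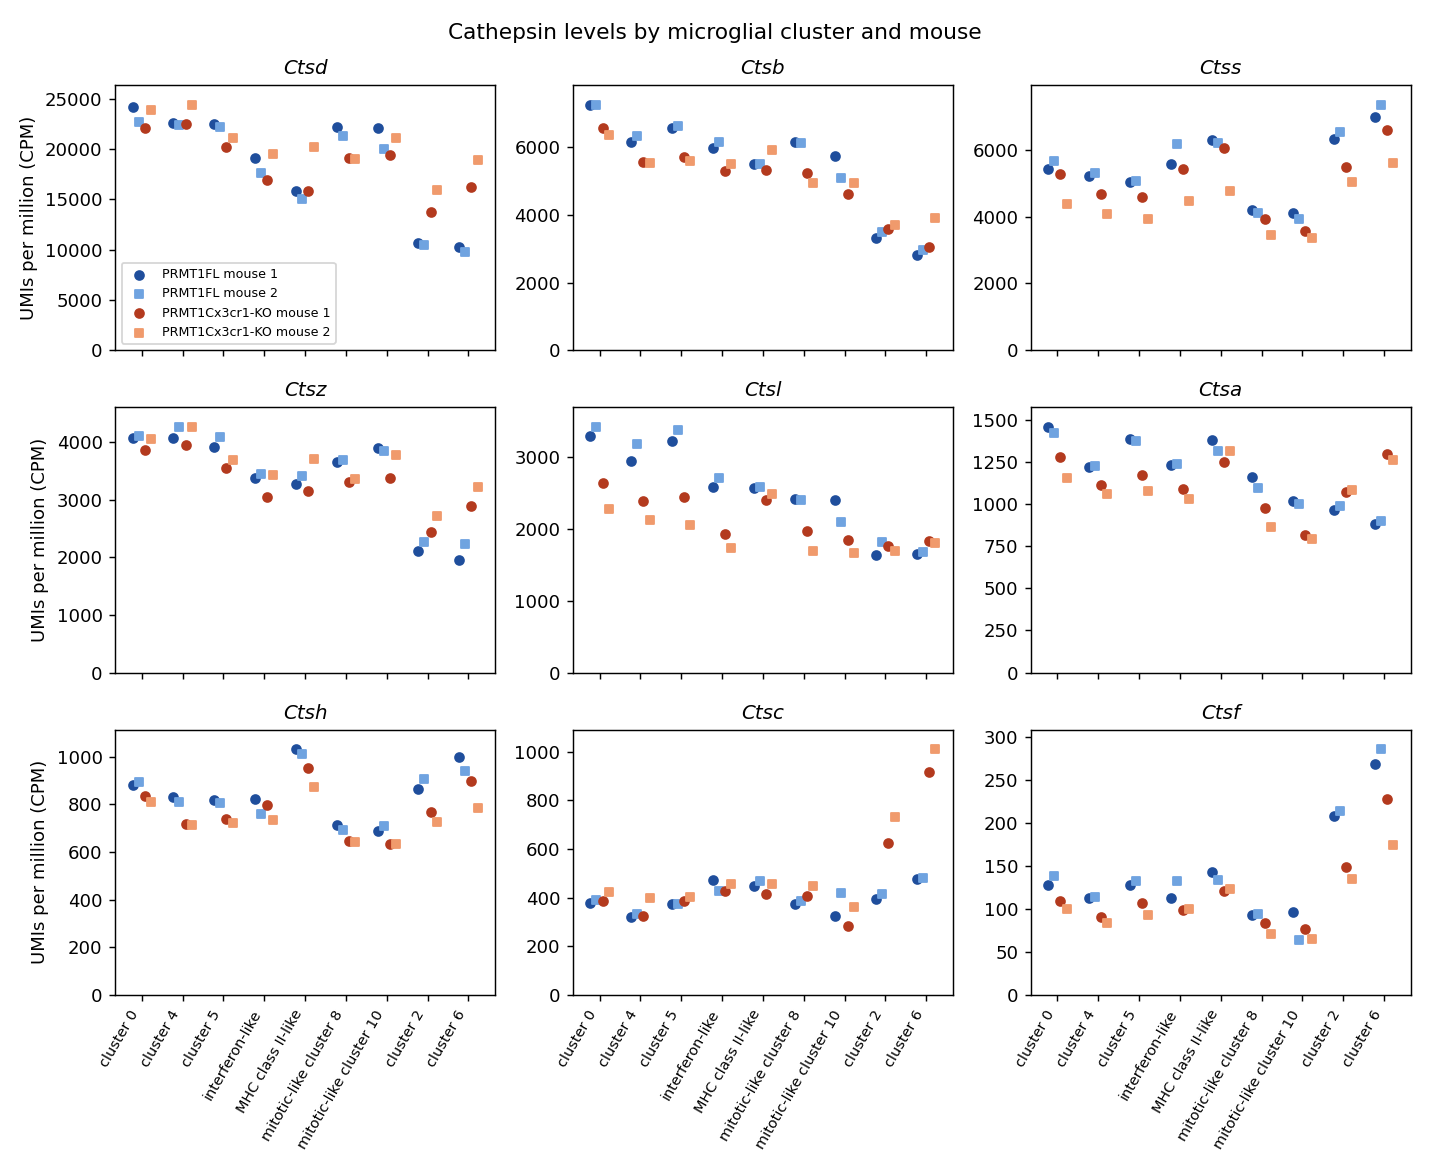
Level in CPM (linear axes from 0) of 9 cathepsins in 9 microglial clusters, with 1 point per mouse coloured by genotype. In the PRMT1FL mice Ctsd, Ctsz, Ctsb and Ctsl are lowest in clusters 2 and 6, where Ctss and Ctsf are at their highest.

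Across these 9 clusters Ctsd and Ctsz followed each other most closely of any pair of members (Pearson's r of log2(CPM + 1) 0.98 as a mean of 4 mice), and Ctsf followed Ctss (0.90), while Ctsd and Ctsf ran in opposite directions (-0.68). The points share their libraries and differ in depth. From cell to cell the relations were weaker. Spearman's rho after thinning to 2000 UMIs was 0.65 for Ctsb and Ctsd, 0.55 for Ctsd and Ctsz, 0.47 for Ctsb and Ctsz, 0.17 for Ctsh and Ctss, and -0.10 for Ctsd and Ctss, as means of 4 mice over 36030 cells in all. Between cells of 1 library these values share that library's free RNA.

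Of 5132 genes searched at 20 CPM or more, those most like each member across the 9 clusters included other lysosomal genes. The share of lysosomal genes among all those searched was not counted. Gaa, the lysosomal alpha-glucosidase, was nearest to Ctsa (mean r 0.91), followed by Lamp1, a lysosomal membrane protein (0.87), and Ly9 (0.80). Besides Ctsz, Ctsd had Glmp (0.95) and Cd68 (0.93), and besides Ctsd, Ctsz had Cd68 (0.97) and Gsto1 (0.95). Nearest to Ctsl were Pld3 (0.89), Dpp7 (0.89) and Igf1 (0.88), and nearest to Ctsh were Tnfsf12 (0.90), Psap (0.88) and Atp13a2 (0.88). Ctss ran with Fcgr3 (0.95), Trf (0.95) and Ypel3 (0.94), Ctsf with Rnf13, Adgre1 and Pld4 (0.96 each), Ctsb with Colec12 (0.96), B2m (0.95) and Fabp5 (0.95), and Ctsc with Rnf139 (0.87), Pak1 (0.86) and Stx4a (0.85). Each r is the mean over 4 mice, with 9 clusters a mouse, and the 3 nearest genes of 5132 were picked for their values.

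The genotypes were next compared within clusters, whose cells could still differ between genotypes in other measures, as given below. Among 81 pairs of a member and a cluster, 11 were called in edgeR, and 10 of these were in clusters 2, 4 and 6. In cluster 6, 4 members were higher in PRMT1Cx3cr1-KO mice, namely Ctsc, Ctsd, Ctsz and Ctsa, and Ctsf was lower, while 4.35% of the 8445 genes tested there were called higher and 3.65% lower. In cluster 2, Ctsc and Ctsd were higher and Ctsf lower, with 7.14% of 11367 genes called higher and 6.37% lower.

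In cluster 6, Ctsd rose from 10223 and 9784 CPM in PRMT1FL mice to 16207 and 18881 CPM in PRMT1Cx3cr1-KO mice. Both knockout mice stood far above both controls, by 0.82 ± 0.13 on the log2 scale (adjusted p = 5.6e-05, edgeR), although the groups overlapped over all microglia. Ctsc measured 477 and 481 CPM against 917 and 1009 CPM, the largest rise of any member in any cluster (1.02 ± 0.12, adjusted p = 8.09e-07, edgeR). Ctsa rose from 884 and 901 to 1298 and 1261 CPM (0.53 ± 0.12, adjusted p = 0.00315, edgeR). Ctsz rose from 1965 and 2237 to 2898 and 3228 CPM (0.56 ± 0.12, adjusted p = 0.00315, edgeR). These 4 span the aspartic protease, the dipeptidyl peptidase and both carboxypeptidases, and none is a papain-family endopeptidase. The aminopeptidase gene Ctsh was not called in cluster 6 either way, at 784 to 999 CPM over the 4 mice. Enzyme class was not tested, and the interaction given below was called in cluster 6 for Ctsl and Ctsb as well.

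Of the papain-family endopeptidases in cluster 6, Ctsb, Ctsl and Ctss were not called and Ctsf was lower. Ctsb was at 2812 and 2980 CPM in PRMT1FL mice against 3062 and 3914 CPM in PRMT1Cx3cr1-KO mice (log2 fold change 0.28 ± 0.13, adjusted p = 0.193, edgeR). Ctsl was at 1654 and 1673 against 1838 and 1799 CPM (0.14 ± 0.12, adjusted p = 0.551, edgeR), which is a small difference opposite in sign to that over all microglia. Ctss was at 6981 and 7353 against 6591 and 5616 CPM (-0.22 ± 0.12, adjusted p = 0.316, edgeR). Ctsf fell there, from 269 and 286 to 228 and 174 CPM (-0.48 ± 0.14, adjusted p = 0.0270, edgeR). Together the 10 genes took 2.63% and 2.66% of the UMIs of cluster 6 in PRMT1FL mice against 3.39% and 3.67% in PRMT1Cx3cr1-KO mice, while in cluster 0 they took 4.71% and 4.602% against 4.31% and 4.34%.

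In cluster 2, Ctsd, Ctsc and Ctsf were called, each in the direction of its call in cluster 6. Ctsd measured 10693 and 10473 CPM in PRMT1FL mice against 13757 and 15907 CPM in PRMT1Cx3cr1-KO mice (0.46 ± 0.11, adjusted p = 0.0154, edgeR). Ctsc measured 393 and 414 against 623 and 731 CPM (0.72 ± 0.10, adjusted p = 6.5e-04, edgeR). Ctsf measured 208 and 214 against 148 and 135 CPM (-0.60 ± 0.09, adjusted p = 0.00125, edgeR). In all 3 genes the groups stood apart in both mice.

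The calls in other clusters were all falls. In cluster 4, where 1.32% of genes were called lower, Ctsf (-0.49 ± 0.09, adjusted p = 0.00972, edgeR) and Ctsl (-0.55 ± 0.10, adjusted p = 0.0120, edgeR) were lower in PRMT1Cx3cr1-KO mice. The 4 haemoglobin genes of the red cell list summed there to 1955 and 1027 CPM in PRMT1FL mice against 0 and 0 CPM in PRMT1Cx3cr1-KO mice, and over all microglia to 240.5 and 93.8 against 0.0613 and 0.0215 CPM, so red cell RNA followed genotype, and its part in these falls was not tested. Over microglia without cluster 4, 0 members were called, as with it. Ctsl went from 2949 and 3189 to 2384 and 2130 CPM there, and from 2578 and 2709 to 1923 and 1732 CPM in the interferon-like cluster (-0.55 ± 0.10, adjusted p = 0.00137, edgeR), where 0.428% of genes were called lower. In the other clusters 0 members were called, beside 0.942% of genes in cluster 0, 1.04% in cluster 5, 0.599% in the MHC class II-like cluster, 0.363% in mitotic-like cluster 8 and 0.419% in mitotic-like cluster 10. Leaving out each mouse in turn, with 1 mouse left in its group, changed how many pairs were called, and how many of all genes. Over these fits the median log2 fold change of the members ran from 0.15 to 0.46 in cluster 6 (0.28 with all mice). In cluster 2 it ran from 0.01 to 0.12 (0.07 with all mice). The calls of Ctsc and Ctsd in cluster 6 and of Ctsc and Ctsf in cluster 2 were made in all 4 of these fits, while the other 7 were lost in at least 1. Ctsf had fewer CPM in both knockout mice than in both controls in every cluster but mitotic-like cluster 10, and the share of all genes that did so was not counted. Over all microglia 17.3% of genes tested stood apart in that direction, so how unusual this is for Ctsf cannot be judged here.

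The difference between clusters was tested directly as a genotype by cluster interaction in limma voom over 12270 genes, with the mouse as a random block. It called 17 of the 81 pairs, 11 of them higher and 6 lower than in the other clusters. In cluster 6 the effect of genotype exceeded that in the other clusters for Ctsc (1.004 ± 0.097), Ctsd (0.89 ± 0.08), Ctsa (0.81 ± 0.08), Ctsz (0.69 ± 0.07), Ctsl (0.59 ± 0.11) and Ctsb (0.52 ± 0.09), a count of 6 of 9 where 2.0% of all genes were called higher. In cluster 2 it did so for Ctsc (0.61 ± 0.08), Ctsd (0.42 ± 0.06), Ctsl (0.36 ± 0.09), Ctsa (0.30 ± 0.07) and Ctsz (0.26 ± 0.06), 5 of 9 where 1.87% were called higher.

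The 6 lower interactions lay in other clusters. In cluster 5 they were Ctsl (-0.34), Ctsd (-0.33), Ctsa (-0.26) and Ctsz (-0.25), with 0.179% of genes called lower, in the MHC class II-like cluster Ctsc (-0.39, with 0.147% called lower), and in mitotic-like cluster 8 Ctsd (-0.36, with 0.367% called lower). Ctsf, Ctsh and Ctss differed from no cluster to the rest past the threshold. Without either control mouse 0 of the 6 lower interactions were called, and without the second knockout mouse those of Ctsd in cluster 5 and mitotic-like cluster 8 were. Fewer members were also called higher in clusters 2 and 6 without either control mouse. Fewer of all genes were then called in each cluster named here. In cluster 2 more members were called higher without either knockout mouse, though fewer of all genes were. In cluster 6 as many members were called higher without the first knockout mouse and fewer without the second.

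**Figure D3:**
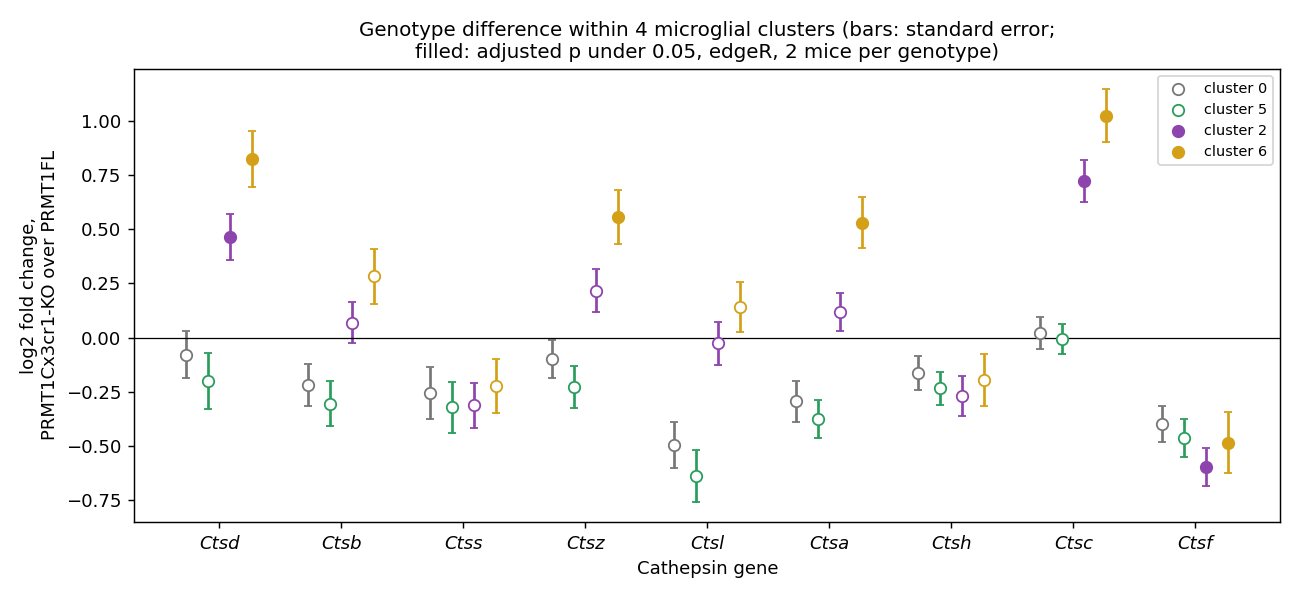
Log2 fold change (PRMT1Cx3cr1-KO over PRMT1FL, edgeR, 2 mice per group) of 9 cathepsins within microglial clusters 0, 5, 2 and 6, with bars for the SE. Filled points passed an adjusted p of 0.05 and open points did not, and the filled points above 0 belong to clusters 2 and 6.

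Other measures moved with genotype in these clusters. In cluster 6 the sum of the 5 microglial markers named above was lower in the knockout mice (9341 and 8892 against 6937 and 5612 CPM, 5 of 5 detected in each mouse), while Apoe, which microglia in general express, was higher (11286 and 12609 against 18876 and 23957 CPM). The sum of Ms4a7, Clec12a and Gpnmb, markers of Gpnmb phagocytes, was low but also higher, at 14.9 and 6.08 against 36.6 and 44.7 CPM with 2 or 3 of 3 detected. The border macrophage list came to 17.2 and 13.02 against 34.4 and 49.2 CPM with 3 or 4 of 5 markers detected, while its own cells held Ctsc at 1418 to 1605 CPM. In cluster 2 the microglial markers summed to 6216 and 6306 against 4472 and 4176 CPM and the 3 Gpnmb phagocyte markers to 27.1 and 14.9 against 33.4 and 54.6 CPM. Over all microglia the 5 microglial markers did not move together. Cx3cr1, the gene of the Cre driver, was at 1444 and 1542 against 847 and 836 CPM, and Siglech was also lower in both knockout mice. P2ry12 (403 and 462 against 538 and 585 CPM), Tmem119 and Sall1 were higher in both. The part of Cx3cr1 in the lower sums was not tested. Gdf15, Il7r and Pdlim4, markers of a Gdf15 state, summed to 336 CPM in each of clusters 2 and 6 over all mice. In the other clusters tested they summed to 42.1 to 145 CPM. Over all microglia they came to 40.7 and 50.4 CPM in PRMT1FL mice against 131 and 173 CPM in PRMT1Cx3cr1-KO mice. Cluster 6 held 344 and 390 control and 394 and 628 knockout cells, with a median of 2417 and 2760.5 against 1929 and 2566.5 UMIs. The part of these measures in the differences of Ctsc and Ctsd was not tested.

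Since the clusters differ in depth, the same genes were laid out by the UMIs of the cell, as a description. In cells of 2000 to 4000 UMIs, Ctsd measured 13130 and 11237 CPM in PRMT1FL mice against 15200 and 17001 CPM in PRMT1Cx3cr1-KO mice. In cells of 16000 UMIs or more the order was the other way round, at 25245 and 24388 against 21082 and 21571 CPM. The genotypes were apart in both of these bins and in opposite directions, with log2 ratios of 0.40 and -0.22. Ctsd was also higher in both knockout mice below 2000 UMIs (0.18) and from 4000 to 8000 UMIs (0.26). The groups overlapped between 8000 and 16000 UMIs. Ctsa, Ctsz and Ctsb changed direction as well. At 2000 to 4000 UMIs both knockout mice were higher, with log2 ratios of 0.11, 0.18 and 0.14. From 16000 UMIs both were lower, with log2 ratios of -0.34, -0.21 and -0.30. Below 2000 UMIs Ctsa (0.06) and Ctsz (0.10) were higher in both knockout mice and Ctsb (-0.18) was lower.

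Ctsc was higher in both knockout mice at the shallow end, at 425 and 481 against 720 and 931 CPM below 2000 UMIs, and by less at the deep end, at 353 and 360.0 against 389 and 425 CPM from 16000 UMIs (log2 ratios 0.87 and 0.19), while the groups overlapped from 4000 to 16000 UMIs. Ctsl was lower in both knockout mice below 2000 UMIs (log2 ratio -0.27), overlapped at 2000 to 4000 UMIs and was lower again in the 3 deeper bins, with a log2 ratio of -0.57 from 16000 UMIs. Ctsf and Ctsh were lower in both knockout mice in all 5 depth bins, and Ctss in all bins but the shallowest. The share of all genes whose groups stood apart in each bin was not counted. Over all microglia 17.3% of genes tested stood apart lower in the knockout mice and 38.8% higher.

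**Figure D4:**
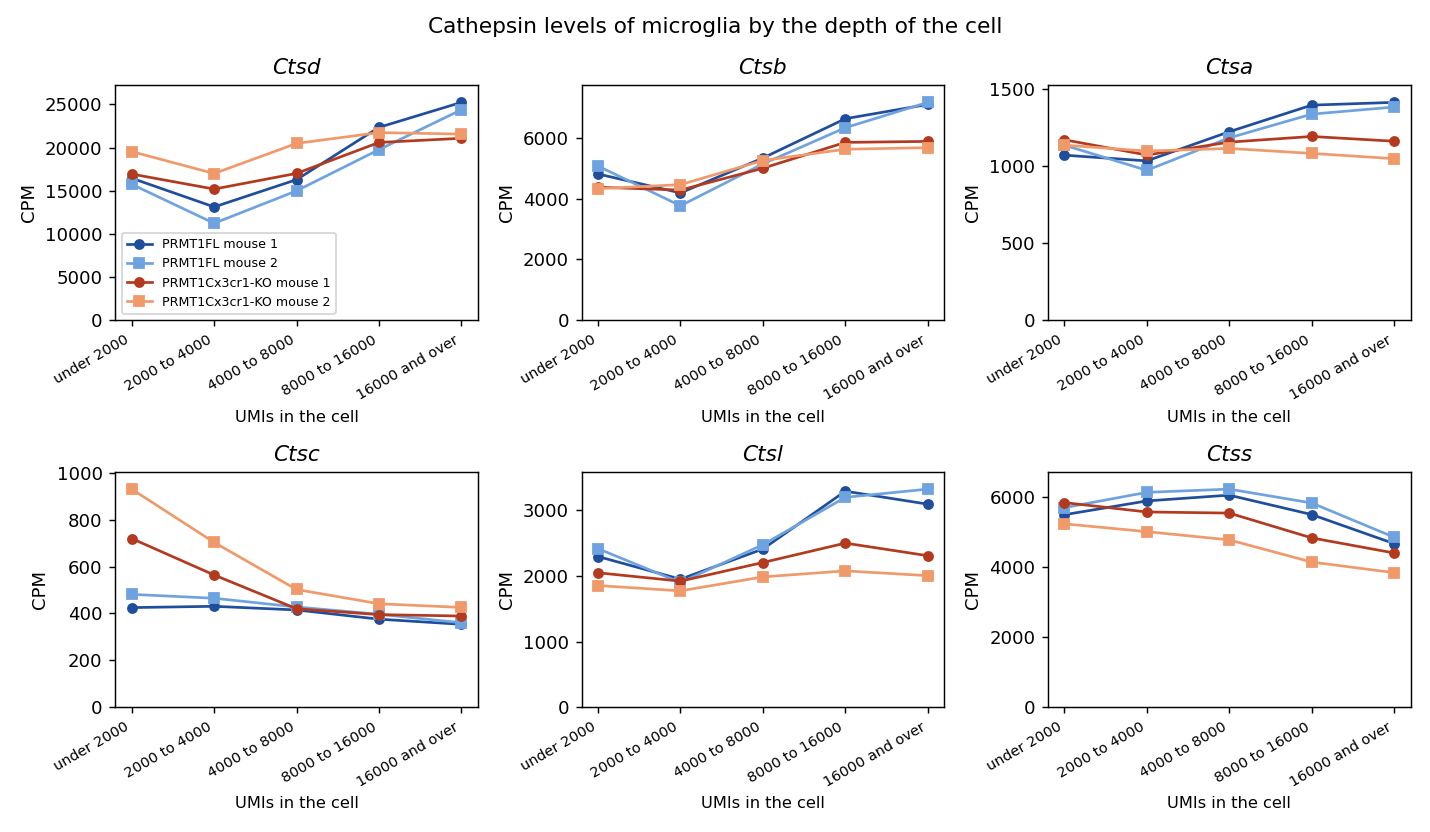
Level in CPM (linear axes from 0) of Ctsd, Ctsb, Ctsa, Ctsc, Ctsl and Ctss in microglia binned by their total UMIs, 1 line per mouse coloured by genotype. The Ctsd, Ctsb and Ctsa lines cross, knockout mice being higher at 2000 to 4000 UMIs and lower from 16000 UMIs. The Ctsc lines of the knockout mice lie farthest above the controls below 2000 UMIs.

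Cell states defined by markers, none of which is a cathepsin, allowed the members to be tested against state itself. Each cell was thinned to 2000 UMIs, cells with 2 or more UMIs of a marker set were compared with cells holding 0, and the mouse was the block. MHC class II cells (Cd74, H2-Ab1, H2-Aa and H2-Eb1) made up 21% and 25% of microglia in the PRMT1FL libraries against 11.6% and 3.80% in the PRMT1Cx3cr1-KO libraries. In these cells 4 members were higher, Ctsh, Ctss, Ctsc and Ctsa, with 8.16% of genes called higher, and Ctsd was lower, with 6.17% called lower.

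Ctss rose in the MHC class II cells of every mouse, from 5410 to 6313 and from 5588 to 6500 CPM in the PRMT1FL mice, and from 4909 to 6450 and from 4375 to 5865 CPM in the PRMT1Cx3cr1-KO mice (log2 ratio 0.44 ± 0.04, adjusted p = 7.17e-07, edgeR, 4 mice). Ctsh likewise rose in all 4, from 813 to 1022 and from 829 to 983 CPM in controls, and from 745 to 999 and from 745 to 946 CPM in knockouts (0.46 ± 0.04, adjusted p = 5.58e-07, edgeR). Ctsd fell in all 4, by 0.20 on the log2 scale, from 19498 to 14568 CPM in the first control mouse and from 20448 to 18035 CPM in the second knockout mouse, whereas without thinning its log2 ratio was 0.0563. Ctsc split by genotype: it was higher in positive cells of both PRMT1FL mice (368 to 475 and 384 to 489 CPM) and lower in those of both PRMT1Cx3cr1-KO mice (457 to 425 and 517 to 440 CPM), an interaction of -0.51 that passed the test (adjusted p = 6.31e-05, edgeR), as 0.578% of genes did in that direction. The interaction of Ctsl was the other one called (0.30), with 0.513% of genes called higher. The call of Ctsc over both genotypes was lost without either PRMT1FL mouse, with DESeq2, without thinning, at a threshold of 1 UMI and when scaled by total UMIs. That of Ctsa was lost without the second PRMT1FL or the first PRMT1Cx3cr1-KO mouse, thinned to 1000 UMIs and when scaled by total UMIs (0.0419), and that of Ctsd also at a threshold of 1 UMI (-0.0809).

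Mitotic cells (Mki67, Top2a, Birc5, Ube2c, Cdk1 and Ccnb2), 4.71% and 4.37% of microglia in PRMT1FL and 6.99% and 10.1% in PRMT1Cx3cr1-KO mice, were low in most members. Ctsf (-0.63 ± 0.08), Ctss (-0.40 ± 0.03), Ctsh (-0.30 ± 0.04), Ctsa (-0.27 ± 0.04) and Ctsl (-0.19 ± 0.04) were lower in them, and each was lower in 4 of 4 mice, with 19.5% of genes called lower. Ctss went from 5791 to 4364 CPM in the first control mouse and from 4670 to 3481 CPM in the second knockout mouse. Ctsd (0.14 ± 0.03) and Ctsz (0.08 ± 0.03) were called higher, where 21.7% of genes were, but their CPM were higher in 3 and 2 of the 4 mice and both calls were lost without the first PRMT1FL mouse, thinned to 1000 UMIs and with DESeq2. The call of Ctsl was lost at a threshold of 1 UMI (-0.0362). The ratio of Ctsd was lower in the knockouts (interaction -0.21, adjusted p = 0.0158 in edgeR, with 0.155% of genes called lower). Ctsb showed a log2 ratio of -0.02 ± 0.03 and did not pass, but at a threshold of 1 UMI it was called higher (0.0797, adjusted p = 0.00312, edgeR).

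Interferon cells (Ifit3, Rsad2, Isg15, Oasl2 and Ifit2) differed least. Ctss (0.13 ± 0.02) and Ctsb (0.12 ± 0.02) were called higher, with 5.97% of genes called higher, in 4 and 3 of the 4 mice by CPM. In the first control mouse Ctss was at 5769 CPM in positive and 5688 CPM in negative cells. No other member was called in them. Scaled by total UMIs neither was called, and Ctsf (-0.24) and Ctsl (-0.0988) were called lower.

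Gpnmb phagocyte cells (Ms4a7, Clec12a and Gpnmb), 3.77% and 3.34% of microglia in PRMT1FL and 3.99% and 7.24% in PRMT1Cx3cr1-KO mice, held more of 4 members. Ctsb rose from 5429 to 8460 and from 5335 to 8678 CPM in PRMT1FL mice, then from 5045 to 6827 and from 5130 to 6356 CPM in PRMT1Cx3cr1-KO mice (0.65 ± 0.06, adjusted p = 5.7e-09, edgeR). Ctsd rose from 17590 to 27327 and from 16542 to 27971 CPM in the controls, but from 17622 to 22911 and only from 20153 to 20599 CPM in the knockouts (0.58 ± 0.07). The smaller rise in the knockouts passed the interaction test for Ctsd (-0.50, adjusted p = 4.02e-05) and Ctsb (-0.31, adjusted p = 0.0263), both in edgeR, with 0.652% of genes called lower. Positive cells were deeper than negative ones in the controls (medians of 9780 against 6618 and 11970 against 7453.5 UMIs), less so in the first knockout mouse (7554.5 against 6910 UMIs), and shallower in the second (6599 against 7630 UMIs). The level of Ctsd also differed with depth, as given above, and a separate Gpnmb phagocyte-like cluster held 24 and 6 control against 60 and 349 knockout cells. The part of depth and of that cluster in these interactions was not tested.

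Ctsa (0.51 ± 0.07) and Ctsz (0.43 ± 0.07) also rose in Gpnmb phagocyte cells of all 4 mice, while 5.1% of genes were called higher. Ctsf fell in all 4 (-0.47 ± 0.11, from 147 to 108 CPM in the first control mouse), where 4.16% of genes were called lower. The call of Ctsf was lost thinned to 1000 UMIs. Ctsl, Ctsc, Ctsh and Ctss were not called.

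Gdf15 cells (Gdf15, Il7r and Pdlim4) were the state with the broadest fall as tested, in 7 of 9 members, where 16.7% of genes were called lower. That rank depended on the setting. Scaled by total UMIs, 4 members were called lower in them, with 920 of 10840 genes. In mitotic cells 6 members then were, with 2364 of 10993 genes. Thinned to 1000 UMIs, 7 were called lower in each state, with 1093 of 9965 genes in Gdf15 and 1297 of 10133 in mitotic cells. They made up 1.12% and 1.67% of microglia in PRMT1FL mice against 6.19% and 8.04% in PRMT1Cx3cr1-KO mice, and were shallower than negative cells in every mouse (median 4244 against 7041.5 UMIs in the first control mouse). Ctsb fell from 5759 to 4223 and from 5691 to 3909 CPM in PRMT1FL mice, then from 5386 to 3898 and from 5548 to 4093 CPM in PRMT1Cx3cr1-KO mice (-0.78 ± 0.06, adjusted p = 1.82e-12, edgeR). Ctsd fell from 18754 to 12089 and from 17700 to 11826 CPM in controls, and from 18517 to 15485 and from 20945 to 17903 CPM in knockouts (-0.73 ± 0.06).

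Ctsz (-0.64 ± 0.06), Ctsl (-0.64 ± 0.08) and Ctsh (-0.42 ± 0.08) fell in all 4 mice as well, while Ctsa (-0.37 ± 0.08) and Ctss (-0.35 ± 0.06) were called lower although their CPM were lower in 2 of the 4 mice. Ctsc was the member that rose in Gdf15 cells (0.30 ± 0.11, adjusted p = 0.0352, edgeR), from 394 to 459.8 and from 415 to 426 CPM in PRMT1FL mice, then from 405 to 750.4 and from 446 to 845 CPM in PRMT1Cx3cr1-KO mice, where 12.4% of genes were called higher. The rise of Ctsc was larger in the knockouts (interaction 0.84, adjusted p = 1.84e-06, edgeR, with 1.13% of genes called higher), and the overall call of Ctsc was lost without either PRMT1Cx3cr1-KO mouse, with DESeq2, without thinning, thinned to 1000 UMIs and at a threshold of 1 UMI. Scaling by total UMIs in place of TMM moved the median of all genes by 0.29 in Gdf15, -0.13 in Gpnmb phagocyte and -0.12 in MHC class II cells, and all log2 ratios here are relative to TMM.

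**Figure D5:**
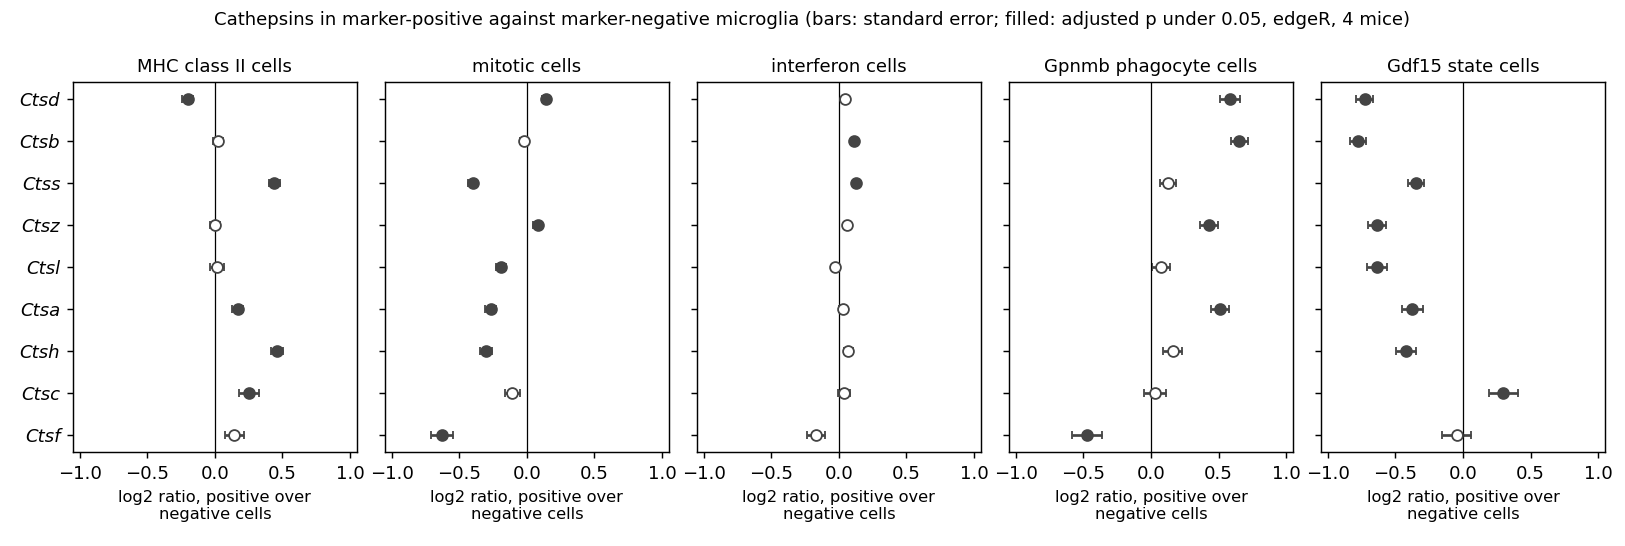
Log2 ratio of each cathepsin between marker-positive and marker-negative microglia, thinned to 2000 UMIs, for 5 marker sets (edgeR, 4 mice with the mouse as a block, bars are SE, filled points passed an adjusted p of 0.05). Ctsh and Ctss stand highest in MHC class II cells, Ctsb and Ctsd in Gpnmb phagocyte cells, and Ctsc alone lies above 0 in Gdf15 cells.

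Genes that serve the cathepsins were read from lists, with 0.794% of all genes called over microglia. Of 13 inhibitors 7 were tested and 1 passed: Ctla2a, a propeptide-like inhibitor of cysteine cathepsins, stood at 61.1 and 58.0 CPM in PRMT1FL mice against 110.4 and 136 CPM in PRMT1Cx3cr1-KO mice (log2 fold change 0.97 ± 0.09, adjusted p = 0.0216, edgeR). Both knockout mice were above both controls for this inhibitor. Without the first or second control mouse it was not called, as few genes were in these fits with 1 control. Its log2 fold change was then 1.01 and 0.94. Of 8 processing partners 1 was lower, Glb1, the beta-galactosidase held in complex with cathepsin A, at 92.2 and 91.6 against 69.3 and 62.6 CPM (-0.55 ± 0.08, adjusted p = 0.0488, edgeR). The call of Glb1 was also lost without either control mouse (log2 fold change -0.55 and -0.56) and with 5 other settings. The median of these 8 partners was -0.25 on the log2 scale.

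Among 6 regulators of lysosomal transcription, Tfec, of the MITF and TFE family, was called higher from very low counts, at 0.193 and 0.110 against 1.44 and 2.81 CPM (3.69 ± 0.43, adjusted p = 0.0333, edgeR). That call was lost without either control mouse, with a log2 fold change of 4.18 and 3.37. None of 9 genes of lysosomal delivery passed (median 0.03), those with the largest differences being Gnptg (-0.15), which encodes a subunit of the phosphotransferase that makes the mannose 6-phosphate tag, and Gnptab (0.13), which encodes the other subunits. None of 13 other lysosomal genes passed, yet 11 of the 13 had a negative log2 fold change, with a median of -0.21, beside -0.26 for the cathepsins, and with Gaa (-0.42) at the lower end. Of 13 further cathepsins 3 were tested and 0 called, among them Ctse (-0.15 ± 0.17) and Ctso (-0.08 ± 0.06).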

How the data were processed

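Single-cell 3′ libraries (10x Genomics) of 4 mice were read as UMI counts per gene and cell, which the authors had made with Cell Ranger 3.1.0 on mm10 and deposited unnormalized; their later steps in Seurat 3.2.0 and Scanpy 1.5.2 are named in the submitters' processing notes and are not in these files. Strand use in the counting is not given in the sources used here. Reads of Ctsa, Ctsb, Ctsc, Ctsl and Ctsz could thus be shared with overlapping genes on the other strand (Neurl2 and Pltp, Fdft1, Gm26522, Gm47123 and Nelfcd). On the same strand, Gm49369 overlaps Ctsd, Gm49230 overlaps Ctsl and Hmgb1-ps5 overlaps Ctss. The effect of these overlaps on the counts was not tested.

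Cells were kept with between 200 and 6000 genes and no more than 10% of UMIs from mitochondrial genes, after the study's methods, and 0 columns of other samples were present. Doublets were marked with Scrublet in Scanpy 1.11.5 (the highest scores up to a set rate of 0.8% per 1000 cells, which marked 6.54% to 9.15% of cells a library) and kept. Counts were scaled to 10000 per cell and clustered (2000 variable genes, 20 components, 15 neighbours, Leiden resolution 0.5) without the members and without 1414 genes that differed between genotypes. UMIs were summed per mouse over microglia, per cluster, or per marker-defined state, and tested with edgeR 4.0.16 (quasi-likelihood, TMM, filterByExpr, Benjamini-Hochberg over all genes tested, threshold 0.05), or for interactions with clusters with limma 3.58.1 (voom, mouse as a random block). Microglial totals of 72888510 to 92868002 UMIs a mouse back each sum, and intervals on shares of cells are exact Clopper-Pearson ones at 95%. CPM are per 1000000 UMIs of the same cells. The 2 libraries of a group differed by more than sampling noise (chi-square per degree of freedom 20.0 and 56.6), so each was counted as 1 mouse. The scripts were tested on simulated data. All 10 members were to be named, and of the other lists each gene past the threshold, or failing that the 2 of a list with the largest change among those at 5 CPM or more. Some listed genes are not reported here, and the sums and counts given leave them out. The members, lists and tests were chosen with earlier results of these data known. DESeq2 1.42.0, other filters, thinning, cell sets and leaving out each mouse were alternatives. Promoters are RefSeq's for GRCm38.p6, which is the mm10 assembly, and the table matched 8 of 10 members.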

Additional observations from a re-analysis of the deposited data

Results flagged for a closer look

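The effect of genotype on a member differed between microglial clusters, or between marker-defined states, past the threshold in 26 tests of that difference. Each value is on the log2 scale.

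In cluster 6 the difference of PRMT1Cx3cr1-KO from PRMT1FL mice exceeded that in the other clusters by 1.004 for Ctsc, 0.89 for Ctsd, 0.81 for Ctsa, 0.69 for Ctsz, 0.59 for Ctsl and 0.52 for Ctsb (limma voom). In cluster 2 it exceeded that in the other clusters by 0.61 for Ctsc, 0.42 for Ctsd, 0.36 for Ctsl, 0.30 for Ctsa and 0.26 for Ctsz. It was below that in the other clusters in cluster 5 for Ctsl (-0.34), Ctsd (-0.33), Ctsa (-0.26) and Ctsz (-0.25), in the MHC class II-like cluster for Ctsc (-0.39), and in mitotic-like cluster 8 for Ctsd (-0.36). The clusters were compared with each other in the same 4 mice, so these 17 values are not independent of one another. The values for marker-defined states, given next, come from the same microglia and are not independent of these 17 either.

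Between marker-positive and marker-negative cells (edgeR), the ratio was lower in PRMT1Cx3cr1-KO than in PRMT1FL mice for Ctsc in MHC class II cells (-0.51), Ctsd in mitotic cells (-0.21), and Ctsd (-0.50) and Ctsb (-0.31) in Gpnmb phagocyte cells. It was higher for Ctsl in MHC class II cells (0.30) and for Ctsc (0.84), Ctsd (0.42), Ctsa (0.41) and Ctsl (0.39) in Gdf15 cells. Gdf15 cells were also rarer in the PRMT1FL mice, with 112 and 121 positive cells against 565 and 776.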

How the results depend on the processing

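Over microglia, the count of members called went from 0 to 5 with DESeq2, 4 with no filter on low counts and 1 with thinned cells. It was 6 with the cluster as a term, a fit on sums per mouse and cluster. The count of all genes called (110) was 703 with DESeq2, 1608 with no filter, 247 with the replicate number as a block, 749 over all cells, 63 without marked doublets, 262 with thinned cells, 56 without cluster 4, 2700 with the cluster as a term, and 4 to 2753 without each mouse in turn. Within clusters, 25 pairs in place of 11 were called with the replicate block, and 5 to 33 without each mouse. The interaction count of 17 ranged from 5 to 24 without each mouse, with 1 to 6 members higher in cluster 2. The calls in MHC class II cells (5) fell to 3 at a threshold of 1 UMI and to 3 to 5 without each mouse, and without thinning they became 7, all higher, with Ctsc and Ctsd lost and Ctsb, Ctsf, Ctsl and Ctsz gained. Those in interferon cells (2) became 1 at that threshold, 0 with cells thinned to 1000 UMIs and 5 without thinning, and those in Gdf15 cells (8) became 5 when scaled by total UMIs. Of all genes in MHC class II cells, 1537 of 10722 were called. This became 1123 of 11008 at the threshold of 1 UMI and 2295 of 12542 without thinning. In interferon cells 802 of 10780 became 639 of 11042, 485 of 9983 and 2637 of 12548, in the order given. In Gdf15 cells 3150 of 10840 became 4240.

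Direction turned for Ctsd over microglia (0.0632 thinned, 0.0528 with the cluster as a term), for Ctse without the first PRMT1FL or the second PRMT1Cx3cr1-KO mouse (-0.38 to 0.0595 over the 4 fits), for Ctsd in MHC class II cells (0.0563) and Ctss in interferon cells (-0.0195) without thinning, and for Ctsz in mitotic cells thinned to 1000 UMIs (-0.0057). Of members not called in a state, Ctsb in mitotic cells turned at a threshold of 1 UMI (0.0797), without thinning (0.0248) and without the second PRMT1Cx3cr1-KO mouse (0.0101), and scaling by total UMIs turned Ctsb (-0.10), Ctsl (-0.11) and Ctsz (-0.13, called lower) in MHC class II cells; other uncalled members were not followed. The cause of these changes was not tested. Replicates with the same number deviated together with a correlation of 0.144, from 2 pairs only, so the numbers were not taken to pair the mice. The leaving out of cluster 4, of Gpnmb phagocyte-like cells, the scaling by total UMIs and the interactions without each mouse were chosen after seeing the data. The 2 mice a group, and the few UMIs a cell of Ctsf and Ctsk, limit what these data can show.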

Other observations

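Levels of some cathepsins were also read in cells other than microglia. In border macrophage-like cells (33 to 75 cells a mouse) Ctsc was at 1418 and 1426 CPM in PRMT1FL mice against 1528 and 1605 CPM in PRMT1Cx3cr1-KO mice, above its level in each of the 9 microglial clusters of the same mouse, whereas Ctsd there was at 7670 to 8475 CPM and Ctsl at 937 to 1190.4 CPM, both under the lowest of those 9 clusters in the same mouse. In monocyte-like cells, of which 3 mice had 4 to 9, Ctsh had a mean of 757 CPM, Ctsc of 525 CPM and Ctss of 2358 CPM, while Ctsd lay between 293 and 2509 CPM. In astrocyte-like cells Ctsd ranged from 1344 to 10181 CPM over the 4 mice, the second PRMT1Cx3cr1-KO mouse being the highest.

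Gpnmb phagocyte-like cells formed a cluster of their own with 24 and 6 cells in the PRMT1FL libraries against 60 and 349 in the PRMT1Cx3cr1-KO libraries, so most came from 1 mouse and no test was run in it. Ctsl in these cells was 1536 and 1444 CPM in the controls and 1296 and 743 CPM in the knockouts, below the all-microglia value of each mouse, and Ctss was 5276 and 6484 against 6641 and 5729 CPM. As means of 4 mice, Ctsd (18596 against 20410 CPM over all microglia) and Ctsz (2883 against 3655 CPM) were lower there. Ctsb (7815 against 5874 CPM) and Ctsa (1470 against 1218 CPM) were higher. The values of Ctsd in these cells ran from 14053 to 25494 CPM over the mice, and those of Ctsb from 5260 to 11671 CPM.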
